A study of Mus musculus with 17 samples.

Results

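The 10 genes described here supply MHC class I molecules with peptide, and were taken by name as the genes of the immunoproteasome, of peptide transport and of class I loading. They are 10 of the 19938 genes that the array measured with a feature of their own, and all 10 were measured, with no filter on dim genes. Spleens of female BALB/c mice were pooled, and myeloid cells of 2 kinds were sorted from them. These were monocytic cells (Mo), which carry CD11b and much Ly-6C and little Ly-6G, and polymorphonuclear cells (PMN), which carry CD11b and much Ly-6G and little Ly-6C. They came from naive mice, which received no tumour cells (3 Mo and 4 PMN arrays), and from mice 3 weeks (3 Mo and 2 PMN arrays) or 6 weeks (3 Mo and 2 PMN arrays) after 100000 Her-2/CT26 colon carcinoma cells were injected under the skin. The study asked which factors make such cells, called myeloid-derived suppressor cells in tumour-bearing mice, more suppressive as a tumour grows. Whether a group's replicates were separate pools of spleens is not given in the labels, so each p-value measures only how far these arrays vary, and that variation may be technical.

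Nucleated cells cut proteins into peptides with the proteasome, and MHC class I molecules carry some of these peptides to the surface, where CD8 T cells inspect them. Interferon-gamma makes cells exchange the catalytic subunits of the proteasome for a second set, encoded by Psmb8, Psmb9 and Psmb10, and attach the activator made of the products of Psme1 and Psme2. Tap1 and Tap2 encode the transporter that moves peptides into the endoplasmic reticulum, Tapbp encodes tapasin, which bridges the transporter and the class I molecule, B2m encodes the light chain of every classical class I molecule, and Nlrc5 encodes a transactivator of class I genes.

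Of the 10 genes, 5 lie on chromosome 17 in the RefSeq annotation of GRCm38.p6. Psmb9 (34182030 to 34187330), Tap1 (34187556 to 34197225), Psmb8 (34198195 to 34201454) and Tap2 (34204479 to 34216321) lie there in this order within a short stretch, and Tapbp (33919478 to 33929290) lies nearby. Psme1 (55578494 to 55581527) and Psme2 (55587440 to 55591101) are both on chromosome 14, and B2m is on chromosome 2 (122147687 to 122153082). Psmb10 (105935728 to 105938392) and Nlrc5 (94434335 to 94527272) are on chromosome 8.

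Class I genes are known for shared control by interferon and by Nlrc5, and the promoters that held a match to a motif of that kind are shown. RefSeq promoters on GRCm38.p6 were matched for 8 of the 10 genes (Tap2 and Nlrc5 had no entry), and the 250 bases before the start site were searched on both strands. Of the 4 motifs searched, GAAANNGAA (the type bound by interferon regulatory factors) was found in 1 of 8 promoters, that of B2m, at -139 to -131, and in 7.13% of all 32851 promoters. TTCNNNGAA (the type bound by STAT factors) was found in 1 of 8, that of Psmb8, at -97 to -89, and in 7.02% of all. ATTGG (the Y box type) was found in 4 of 8 and in 33.8% of all, and TGACGT (the CRE type) was found in 0 of 8 and in 6.47% of all. Tap1 and Psmb9 are read in opposite directions from a stretch of 225 bases that serves as promoter to both, so their shared Y box counts for both genes. The promoters of Psmb10, Psme1 and Psme2 held no match and are not shown. These matches describe letters in a window and do not show binding. The windows below are chr2:122147437-122147686 for B2m, chr17:34187331-34187555 for Tap1 and Psmb9, chr17:33919228-33919477 for Tapbp and chr17:34197945-34198194 for Psmb8, all on the plus strand, 5′ to 3′, with matches to the motifs in capitals (CCAAT is ATTGG on the other strand).
B2m: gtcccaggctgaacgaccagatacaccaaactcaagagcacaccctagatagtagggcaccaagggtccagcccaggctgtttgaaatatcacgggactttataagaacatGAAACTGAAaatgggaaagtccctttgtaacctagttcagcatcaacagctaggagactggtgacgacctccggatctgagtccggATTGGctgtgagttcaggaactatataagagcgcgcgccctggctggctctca
Tap1 and Psmb9: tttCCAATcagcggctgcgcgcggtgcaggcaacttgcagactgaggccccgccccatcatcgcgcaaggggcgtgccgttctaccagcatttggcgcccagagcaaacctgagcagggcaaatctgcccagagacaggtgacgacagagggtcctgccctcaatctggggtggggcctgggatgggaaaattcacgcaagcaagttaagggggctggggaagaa
Tapbp: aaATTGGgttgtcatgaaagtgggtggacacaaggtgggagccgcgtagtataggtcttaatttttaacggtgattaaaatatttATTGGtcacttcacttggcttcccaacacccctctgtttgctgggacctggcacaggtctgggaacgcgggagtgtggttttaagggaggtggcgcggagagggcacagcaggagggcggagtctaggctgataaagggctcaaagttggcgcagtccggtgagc
Psmb8: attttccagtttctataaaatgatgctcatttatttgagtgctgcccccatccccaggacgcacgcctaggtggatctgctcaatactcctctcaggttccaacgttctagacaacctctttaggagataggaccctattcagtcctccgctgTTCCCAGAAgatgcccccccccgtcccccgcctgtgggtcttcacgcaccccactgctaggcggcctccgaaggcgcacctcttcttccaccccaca

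All levels are log2 of the deposited intensities, and all changes are differences of mean log2 intensity with the standard error (SE) of the fit. The threshold for a call was an adjusted p of 0.05 in limma, with adjustment over all 19938 genes. Median intensity per array was 95.3 to 104 in Mo at 6 weeks against 108 to 114 in naive Mo, and 81.0 to 82.4 in PMN at 6 weeks against 91.3 to 94.7 in naive PMN, so the arrays of 6 weeks were dimmer and scaling matters for small changes. The median change of all genes at 6 weeks against naive was -0.09 in Mo and -0.18 in PMN on the deposited scale, 0.03 and 0.02 after centring each array on its median, and -0.02 and -0.05 after quantile normalization over all 17 arrays (joint quantile normalization). The 11468 brighter genes were those kept by a dim-gene filter, at or above the median level in Mo or in PMN. Their median change was 0.11 in both subsets on the deposited scale. Of the 3 Mo arrays of 3 weeks, replicate 1 stood nearest to the naive mean for 9 of the 10 genes and lay within the naive range for 6. These shares were not taken over all genes. Its median intensity was 111, within the naive range, against 99.1 and 95.6 for replicates 2 and 3. Leaving replicate 1 out moved the genes called at 3 weeks against naive from 1202 to 8911, so the arrays differed beyond the 10 genes. The Mo arrays carried the monocyte receptor gene Ccr2 at 12.06 to 12.45 and the PMN arrays at 6.07 to 6.78. The neutrophil receptor gene Cxcr2 lay at 5.46 to 7.25 in Mo and 12.44 to 12.70 in PMN. Of the Mo arrays of 6 weeks, replicate 2 stood apart in Cxcr2, at 7.25 against 5.66 and 6.09. It did so too in Ly6g, the gene of the sorting marker, at 8.95 against 6.56 and 6.43. Ly6g lay at 5.97 to 6.18 in naive Mo and 10.21 to 12.97 in PMN. Whether that array held granulocytic cells was not tested. Ly6c2 and Ly6c1 were not measured by a feature of their own. The subsets appear to have been normalized apart, so levels are set side by side and not tested between Mo and PMN.

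**Figure D1:**
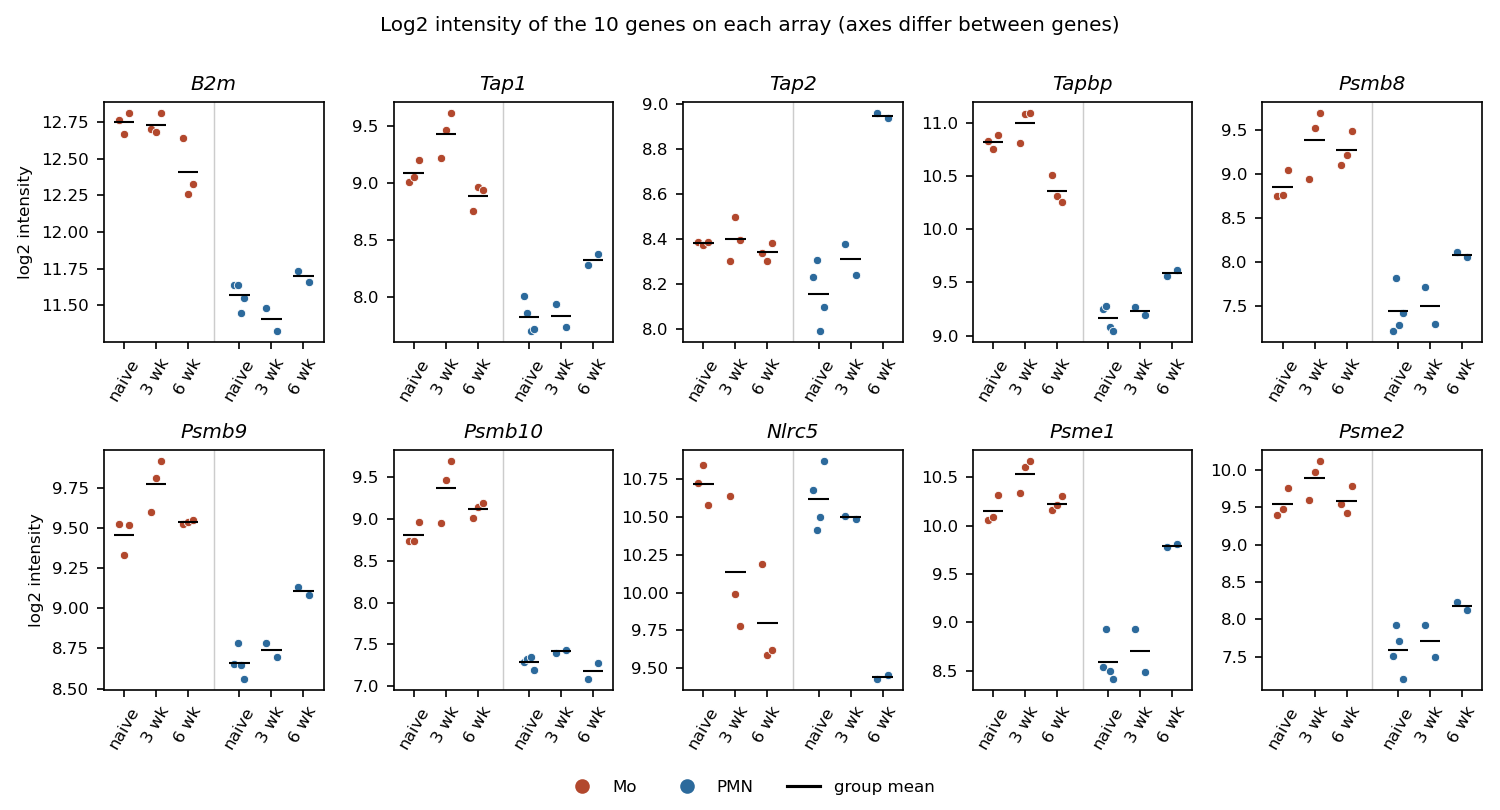
Log2 intensity (vertical axis, its range differing between genes) of each of the 10 genes on each of the 17 arrays, with Mo left of PMN and the stages from naive to 6 weeks within each. Points are arrays and bars are group means. In Mo at 6 weeks B2m, Tap1, Tapbp and Nlrc5 lie below all naive arrays, and Psmb8, Psmb10 and, narrowly, Psmb9 lie above. In PMN at 6 weeks Nlrc5 lies below all naive arrays, Psmb10 overlaps them and the other genes lie above. The share of all genes without overlap was not taken.

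In Mo cells at 6 weeks, 3 of the 10 genes were lower than in naive mice and 0 were higher. They were Nlrc5, Tapbp and B2m. Over all genes, 24.4% were called lower and 21.8% higher in this comparison, so the count of 3 is near the background. Of all genes called there, 47.2% were higher on the deposited scale and 69.5% after centring. The members' median change was 0.00, between -0.91 and 0.42, beside -0.09 over all genes. In a fit of the 11468 brighter genes 3 of the 10 were again lower and 0 higher. Beside them, 2369 of the brighter genes were lower and 4044 higher, with a median change of 0.11. Under joint quantile normalization 6 of the 10 were lower and 0 higher, beside 13.1% of all genes lower and 13.2% higher.

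Nlrc5, the class I transactivator, had the largest difference in Mo. Its brightest feature (10574100) read 10.72, 10.84 and 10.58 in naive Mo, 10.64, 9.99 and 9.78 at 3 weeks, and 10.19, 9.59 and 9.62 at 6 weeks. The 3 arrays of 6 weeks all lay below the naive ones, with replicate 1 nearest to them. The change at 6 weeks was -0.91 ± 0.19, a 1.88-fold lower level (adjusted p = 0.00174). It stayed past the threshold after centring (-0.79) and after joint quantile normalization (-1.20), and lay between -1.11 and -0.80 with each array left out in turn.

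Tapbp, the tapasin gene, read 10.83, 10.75 and 10.88 in naive Mo, 10.81, 11.08 and 11.09 at 3 weeks, and 10.51, 10.31 and 10.26 at 6 weeks. The arrays of 6 weeks lay below those of both other stages with no overlap. Its change against naive was -0.46 ± 0.10, a 1.38-fold lower level (adjusted p = 0.00237), and it passed after centring (-0.34) and after joint quantile normalization (-0.72) as well. Against 3 weeks its change was -0.64 ± 0.10 (adjusted p = 0.000379).

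B2m, the class I light chain gene, read 12.76, 12.67 and 12.81 in naive Mo, 12.70, 12.68 and 12.81 at 3 weeks, and 12.64, 12.26 and 12.33 at 6 weeks. The naive and 3-week arrays overlapped, and the arrays of 6 weeks lay below both, with replicate 1 close to them. The change against naive was -0.34 ± 0.10, a 1.26-fold lower level (adjusted p = 0.0152). This call was lost after centring (-0.22, adjusted p = 0.118) and without the 6-week array of replicate 2 (-0.26, 0.0797) or of replicate 3 (-0.29, 0.0701), and it was kept after joint quantile normalization (-0.42).

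The transporter genes differed less in Mo. Tap1 read 9.01, 9.05 and 9.20 in naive Mo, 9.22, 9.47 and 9.61 at 3 weeks, and 8.76, 8.96 and 8.94 at 6 weeks. It was lower at 6 weeks than at 3 weeks by -0.55 ± 0.11 (adjusted p = 0.00421), while its change against naive, -0.20 ± 0.11, missed the threshold on the deposited scale (adjusted p = 0.148) and passed after joint quantile normalization (-0.54, adjusted p = 0.00034). Tap2 lay between 8.30 and 8.50 on all 9 Mo arrays, with a change at 6 weeks against naive of -0.04 ± 0.09 that was 0.08 after centring and -0.37 after joint quantile normalization, where it passed.

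The 3 immunoproteasome subunit genes did not pass in Mo at 6 weeks in the main fit on the deposited scale. With array weights Psmb8 (0.45, adjusted p = 0.00226) and Psmb10 (0.37, adjusted p = 0.000403) passed as higher. Both also passed as higher with a block for replicate number. Psmb8 did so as well without naive replicate 3 (0.52, adjusted p = 0.0499) or 6-week replicate 1 (0.50, adjusted p = 0.049). Of all 19938 genes, array weights called 5905 higher and the block 4902. Psmb8 read 8.74, 8.76 and 9.04 in naive Mo, 8.94, 9.52 and 9.69 at 3 weeks, and 9.10, 9.21 and 9.49 at 6 weeks, and its change against naive was 0.42 ± 0.19 (adjusted p = 0.0719). Psmb10 read 8.74, 8.74 and 8.97 in naive Mo, 8.95, 9.47 and 9.69 at 3 weeks, and 9.02, 9.14 and 9.19 at 6 weeks, with a change of 0.30 ± 0.14 (adjusted p = 0.0819) that was -0.08 after joint quantile normalization. For both, the arrays of 6 weeks lay above the naive ones without overlap. Psmb9 read 9.53, 9.33 and 9.52 in naive Mo, 9.60, 9.81 and 9.92 at 3 weeks, and 9.53, 9.54 and 9.55 at 6 weeks. Its change was 0.08 ± 0.09 on the deposited scale and -0.29 after joint quantile normalization, where it passed as lower (adjusted p = 0.0139). Of the activator genes, Psme1 changed by 0.07 ± 0.14 and Psme2 by 0.04 ± 0.18, neither past the threshold, and both were below 0 after joint quantile normalization (-0.26 and -0.32).

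At 3 weeks, 1 of the 10 genes was higher in Mo cells than in naive mice and 0 were lower, where 5.2% of all genes were called higher and 0.833% lower. The gene was Psmb10, at 0.56 ± 0.14 (1.47-fold, adjusted p = 0.0347), although its groups overlapped, because replicate 1 of 3 weeks lay within the naive range. The call was lost in 7 of 14 alternatives, among them joint quantile normalization (0.26, adjusted p = 0.152). B2m was at -0.02 and Nlrc5 at -0.58 ± 0.19 (adjusted p = 0.068), neither past the threshold. Another 7 genes had changes between 0.17 and 0.54 (Tap1, Tapbp, Psmb8, Psmb9, Psme1 and Psme2) or of 0.02 (Tap2) that did not pass, and those of Tapbp and Tap2 were -0.02 and -0.23 after joint quantile normalization. Without the 3-week array of replicate 1, 7 genes were higher (Psmb10, Psmb8, Psme2, Psme1, Tap1, Psmb9 and Tapbp) and 1 lower (Nlrc5), beside 22.7% of all genes higher and 22% lower. Without replicate 2 or replicate 3 of 3 weeks 0 genes passed. The comparison at 3 weeks therefore turned on single arrays.

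Between 3 and 6 weeks in Mo, 2 of the 10 genes were lower (Tap1 and Tapbp, given above) and 0 higher, beside 3.13% of all genes lower and 4.38% higher. All 10 changes were below 0, between -0.64 and -0.06, with a median of -0.31 beside -0.03 over all genes. The sign of 1 of them turned with an array left out: Psmb8 was at -0.12 with all arrays and at 0.04 without the 3-week array of replicate 3. Under joint quantile normalization 6 of the 10 were lower, beside 4.11% of all genes, and these were Tap1, Tapbp, B2m, Psmb9, Psmb10 and Psme1. Without the 3-week array of replicate 1 the count of lower genes was 4, beside 4.46% of all genes.

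In PMN cells at 6 weeks, 7 of the 10 genes were higher than in naive mice on the deposited scale (Psme1, Tap2, Psmb8, Psme2, Tap1, Psmb9 and Tapbp) and 1 was lower (Nlrc5), whereas under joint quantile normalization 1 was higher (Psme1) and 4 were lower (Nlrc5, B2m, Tapbp and Psmb9). Over all genes, 25.5% were called higher and 40% lower on the deposited scale, and 21.5% higher and 26.7% lower under joint quantile normalization. Of all genes called, 38.9% were higher on the deposited scale and 64.4% after centring. The members' median change was 0.48 on the deposited scale, beside -0.18 over all genes. In a fit of the 11468 brighter genes 7 of the 10 were again higher and 1 lower. Beside them, 4839 of the brighter genes were higher and 3441 lower, with a median change of 0.11. The calls of Psme1 and Nlrc5 were kept in each of the 14 alternatives fitted for single genes, while Tap1, Tapbp, Psmb9 and B2m changed sign with joint quantile normalization.

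Psme1, a subunit gene of the proteasome activator, had the largest rise in PMN. It read 8.54, 8.93, 8.49 and 8.41 in naive PMN, 8.93 and 8.49 at 3 weeks, and 9.78 and 9.81 at 6 weeks. Both arrays of 6 weeks lay above all others. The change was 1.20 ± 0.15, a 2.29-fold higher level (adjusted p = 5.11e-06), and it was 0.39 after joint quantile normalization (adjusted p = 0.00529) and 1.40 after centring. Its partner gene Psme2 read 8.23 and 8.12 at 6 weeks against 7.20 to 7.93 in naive PMN, and its change of 0.59 ± 0.19 (adjusted p = 0.0114) missed the threshold after joint quantile normalization (0.21, adjusted p = 0.411) and without the 6-week array of replicate 1 (0.54, adjusted p = 0.0852). Its probes may also read the near copy Psme2b, with which it shares another feature.

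Nlrc5 was lower in PMN at 6 weeks, as it was in Mo. It read 10.68, 10.42, 10.50 and 10.87 in naive PMN, 10.50 and 10.49 at 3 weeks, and 9.43 and 9.46 at 6 weeks. The naive and 3-week arrays overlapped, and the arrays of 6 weeks lay far below both. The change was -1.17 ± 0.20, a 2.25-fold lower level (adjusted p = 0.000142), and it was -0.97 after centring and -1.95 after joint quantile normalization.

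The transporter genes were both higher in PMN at 6 weeks on the deposited scale and close to 0 after joint quantile normalization. Tap2 read 8.23, 8.30, 7.99 and 8.10 in naive PMN, 8.38 and 8.24 at 3 weeks, and 8.96 and 8.94 at 6 weeks. Its change was 0.80 ± 0.10, a 1.74-fold higher level (adjusted p = 4.21e-06), and 0.07 after joint quantile normalization (adjusted p = 0.591). Tap1 read 8.01, 7.87, 7.71 and 7.72 in naive PMN, 7.94 and 7.74 at 3 weeks, and 8.28 and 8.38 at 6 weeks, a change of 0.50 ± 0.12 (adjusted p = 0.00201) that was -0.02 after joint quantile normalization. For both genes the arrays of 6 weeks lay above all other PMN arrays.

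Tapbp read 9.25, 9.28, 9.08 and 9.05 in naive PMN, 9.26 and 9.19 at 3 weeks, and 9.56 and 9.61 at 6 weeks. Its direction turned with the scaling, with a change of 0.43 ± 0.11 on the deposited scale (adjusted p = 0.00267) and of -0.39 after joint quantile normalization (adjusted p = 0.0045). B2m read 11.74 and 11.66 at 6 weeks against 11.44 to 11.64 in naive PMN, a change of 0.13 ± 0.11 that missed the threshold (adjusted p = 0.288), was 0.33 after centring and passed as lower after joint quantile normalization (-0.39).

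Of the immunoproteasome subunit genes in PMN, Psmb8 and Psmb9 passed as higher on the deposited scale and Psmb10 did not pass. Psmb8 read 7.21, 7.82, 7.28 and 7.42 in naive PMN, 7.71 and 7.29 at 3 weeks, and 8.10 and 8.05 at 6 weeks, a change of 0.64 ± 0.20 (adjusted p = 0.00951) that missed the threshold after joint quantile normalization (0.36, adjusted p = 0.116) and without the 6-week array of replicate 1 (0.62, adjusted p = 0.0642). Psmb9 read 8.65, 8.79, 8.65 and 8.56 in naive PMN, 8.78 and 8.69 at 3 weeks, and 9.14 and 9.08 at 6 weeks, and its change was 0.45 ± 0.10 on the deposited scale (adjusted p = 0.00122) and -0.31 after joint quantile normalization (adjusted p = 0.00624). Psmb10 read 7.09 and 7.28 at 6 weeks against 7.20 to 7.35 in naive PMN, with overlapping groups and a change of -0.11 ± 0.15 (0.09 after centring).

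At 3 weeks none of the 10 genes passed in PMN cells against naive mice, nor did any of the 19938 genes (0% higher and 0% lower), with 374 genes at an unadjusted p below 0.05 in limma. The members' changes lay between -0.16 and 0.15. Only the floor on intensity gave calls in any gene, 13 in number, and 0 of the 10 genes were among them. The 3-week group had 2 arrays. Between 3 and 6 weeks in PMN, 6 of the 10 were higher on the deposited scale (Psme1, Tap2, Psmb8, Tap1, Psmb9 and Tapbp) and Nlrc5 was lower, beside 23.7% of all genes higher and 34.9% lower. Under joint quantile normalization 0 were higher and 4 lower (Tapbp, Psmb9, Psmb10 and Nlrc5), beside 19.2% of all genes higher and 22.4% lower. The naive comparison and this one share the 6-week arrays. With 1 array left out, between 3 and 8 of the 10 genes passed, and it was 3 without the 3-week array of replicate 2 and 4 without either 6-week array.

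**Figure D2:**
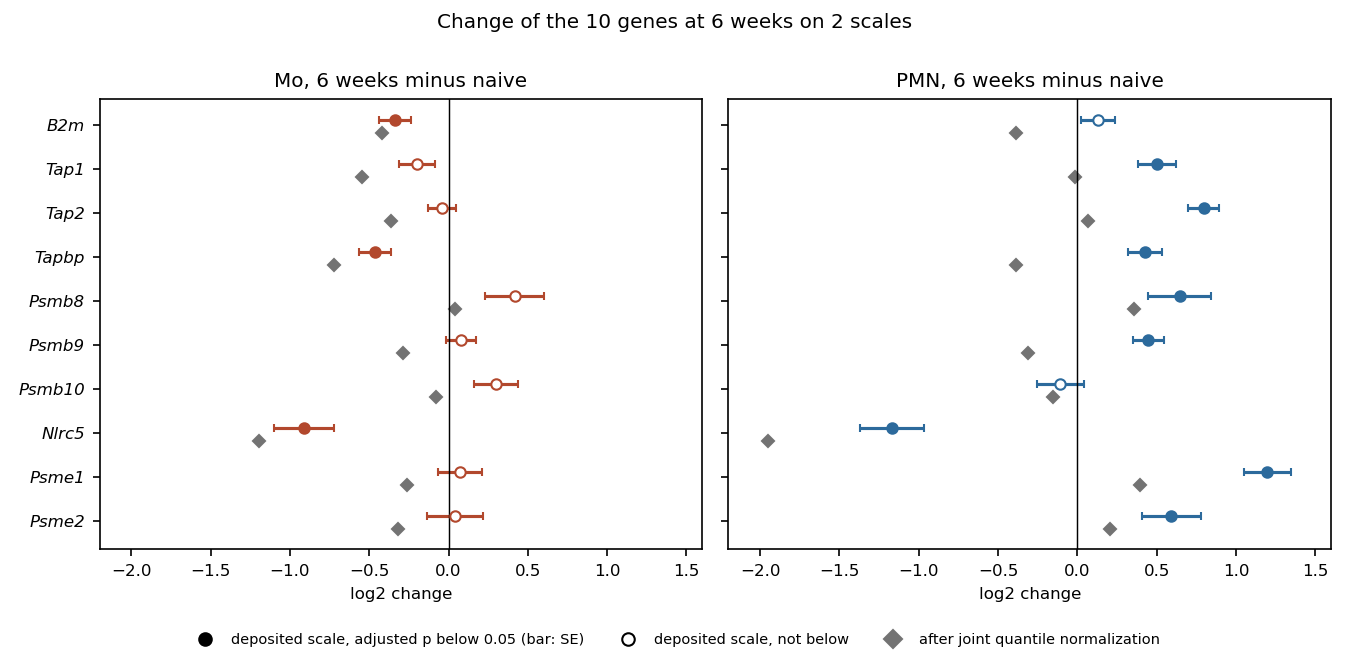
Log2 change at 6 weeks minus naive (horizontal axis) of each of the 10 genes in Mo (left) and PMN (right). Circles with SE bars are on the deposited scale, filled where the adjusted p is below 0.05, and grey diamonds are after joint quantile normalization. In PMN, Tap1, Tapbp, Psmb9 and B2m lie above 0 on the deposited scale and below 0 after joint quantile normalization, while Psme1 stays above 0 and Nlrc5 below 0 on both.

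The 6-week change itself was compared between the subsets, as the change in Mo minus the change in PMN. It was lower in Mo for 5 of the 10 genes and higher for 0, beside 11% of all genes lower and 6.47% higher. In a fit of the 11468 brighter genes it was again 5 and 0, beside 2329 genes lower and 1189 higher. Psme1 differed most, with 0.07 in Mo against 1.20 in PMN (difference -1.12 ± 0.20, adjusted p = 0.00102). Tapbp differed by -0.89 ± 0.15 (adjusted p = 0.000475), Tap2 by -0.84 ± 0.13 (0.000338), Tap1 by -0.70 ± 0.17 (0.00687) and B2m by -0.47 ± 0.15 (0.0374). Under joint quantile normalization Psme1 (-0.66), Tap1 (-0.53) and Tap2 (-0.43) passed, beside 11.5% of all genes lower and 6.63% higher. Tapbp (-0.33, adjusted p = 0.113) and B2m (-0.03, adjusted p = 0.915) did not pass there. B2m also lost its call without any 1 of 8 arrays, at -0.58 to -0.39 over the arrays left out. Nlrc5, which fell in both subsets, had a difference of 0.26 ± 0.28 (adjusted p = 0.599), which was -0.14 for the mean of all its features.

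Nlrc5 was measured by 19 features, and the brightest of them, used above by the rule of the highest mean, did not always move with the others. Its mean level over all arrays was 10.25, and those of the other 18 ran down from 8.36 to 6.21. In Mo at 6 weeks all 19 features were below naive, with a median of -0.62 over the other 18. All 19 passed in a fit over the features, where the share of all features called lower was not taken. Over genes that share was 24.4% in Mo and 40% in PMN at 6 weeks. The features read the same gene, so their count is no measure of separate evidence. At 3 weeks in Mo the brightest feature had a change of -0.58 (adjusted p = 0.0712), while 10 of the other 18 lay above 0 and 8 below, with a median of 0.06 and 0 past the threshold. The direction of Nlrc5 in Mo at 3 weeks thus depended on the feature read. In PMN at 6 weeks all 19 lay below 0 and 15 passed, and the brightest, at -1.17, lay outside the range of the other 18, which ran between -0.86 and -0.17 with a median of -0.44. The size of the fall in PMN therefore also depended on the feature. For scale, the 1194 olfactory and vomeronasal receptor genes on the array, which blood cells are not known to need, had a median level of 5.24 in Mo and 5.30 in PMN and a 95th percentile of 6.80 and 7.06, so the dimmest Nlrc5 features lie in that range. These receptor genes had a median change at 6 weeks of -0.33 in Mo and -0.36 in PMN on the deposited scale, which stands beside the small falls of dim features. The 11468 brighter genes had a median change of 0.11 in both subsets.

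**Figure D3:**
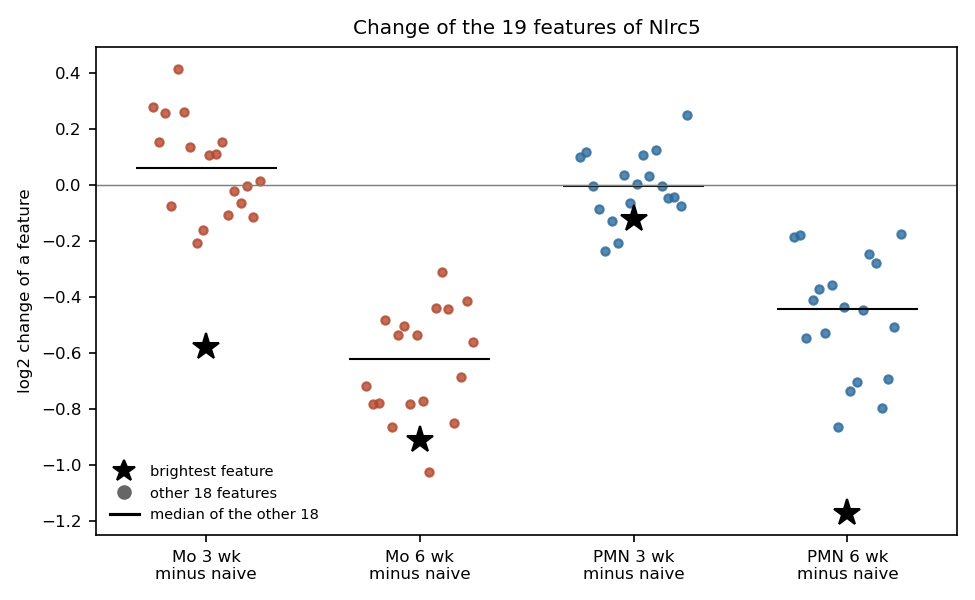
Log2 change against naive (vertical axis) of the 19 features of Nlrc5 in Mo and PMN at 3 and 6 weeks. The star is the brightest feature, circles are the other 18 and the line is their median. At 6 weeks all 19 lie below 0 in both subsets, and in Mo at 3 weeks the star lies at -0.58 while the line lies at 0.06.

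The catalytic subunits of the immunoproteasome take the places of constitutive ones, Psmb8 that of Psmb5, Psmb9 that of Psmb6 and Psmb10 that of Psmb7. The log2 ratio of each pair within an array is not moved by a constant factor for that array, but quantile normalization can move it. Its value also holds the brightness of the 2 features, so only its change is read. Psmb9 to Psmb6 was 0.12, -0.18 and -0.40 in Mo at 6 weeks against 0.80, 0.52 and 0.66 in naive Mo. The groups did not overlap, and the difference of -0.81 had an exact two-sided permutation p = 0.1, the smallest that 3 against 3 arrays can give. Psmb10 to Psmb7 was -1.26, -1.30 and -1.55 in Mo at 6 weeks against -0.81, -0.64 and -0.60 in naive Mo, a difference of -0.69 (exact permutation p = 0.1) again without overlap. Psmb8 to Psmb5 overlapped, at 0.40, 0.37 and 0.54 in Mo at 6 weeks against 0.28, 0.39 and 0.68 in naive Mo (difference -0.01, exact permutation p = 0.9).

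In PMN at 6 weeks the ratio of Psmb10 to Psmb7 differed most. It was -2.59 and -2.18 at 6 weeks against -0.61, -0.64, -0.02 and -0.36 in naive PMN, a difference of -1.97 or 3.93-fold lower (exact permutation p = 0.0667, the smallest that 2 against 4 arrays can give). Psmb7 itself, the constitutive subunit, was higher by 1.87 ± 0.17 (adjusted p = 2.27e-07), whereas Psmb10 did not pass. Psmb10 lay at 7.09 to 7.43 over the 8 PMN arrays, close to the receptor genes' 95th percentile of 7.06. Its reading in PMN may thus hold much background, which could hide a change, and this was not tested. Psmb9 to Psmb6 was lower by -0.40 (exact permutation p = 0.0667, no overlap). Psmb8 to Psmb5 was 0.06 and -0.17 at 6 weeks against -1.02 to -0.36 in naive PMN, so it was higher by 0.64 without overlap (exact permutation p = 0.133), and Psmb5 changed by 0.01 ± 0.14. After joint quantile normalization, tried after seeing the data, the differences in PMN were -1.37 for Psmb10 to Psmb7, -0.77 for Psmb9 to Psmb6 and 0.89 for Psmb8 to Psmb5, and those in Mo were -0.74, -0.81 and -0.01. None of these 6 ratio tests could pass 0.05 with these numbers of arrays, and no adjustment was made over them.

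**Figure D4:**
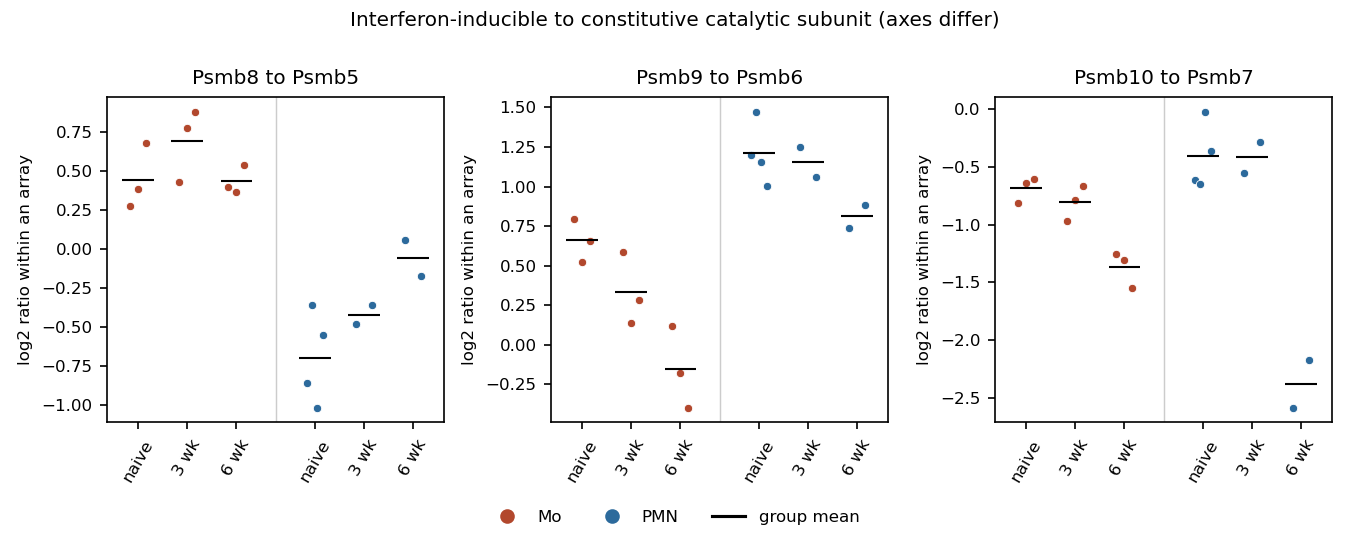
Log2 ratio within each array (vertical axis, its range differing between panels) of each immunoproteasome subunit gene to the constitutive one it replaces, for 9 Mo and 8 PMN arrays by stage. Points are arrays and bars are group means. Psmb10 to Psmb7 lies at -2.59 and -2.18 in PMN at 6 weeks, below all other arrays, and Psmb9 to Psmb6 is lower at 6 weeks than in naive mice in both subsets.

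Most other proteasome genes were higher in both subsets at 6 weeks. Each list count at 6 weeks stands beside 21.8% of all genes higher and 24.4% lower in Mo, and 25.5% higher and 40% lower in PMN. Of the 11468 brighter genes, 4044 were higher and 2369 lower in Mo, and 4839 higher and 3441 lower in PMN. Of the 14 constitutive genes of the 20S core, the barrel in which proteins are cut, 13 were higher and 0 lower in Mo (median 0.83), and 13 were higher and 0 lower in PMN (median 0.95). Psma6 was at 1.12 ± 0.22 in Mo and 2.22 ± 0.23 in PMN, and Psmb3 at 1.16 ± 0.16 and 0.57 ± 0.17. Of the 17 measured genes of the 19S regulator, which unfolds the substrates, all 17 were higher in Mo (median 1.01) and in PMN (median 1.14), and Psmd14, which removes ubiquitin, was at 1.45 ± 0.17 and 1.57 ± 0.18. Joint quantile normalization left 10 core genes higher and 0 lower in Mo, 10 higher and 1 lower in PMN, and 16 and 14 regulator genes higher in Mo and PMN. At 3 weeks in Mo 11 core and 14 regulator genes were higher, beside 5.2% of all genes, and in PMN 0 of either. Both Mo counts were 0 without naive replicate 1 or 2 or without 3-week replicate 2 or 3, and they were 14 and 17 without 3-week replicate 1.

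Other genes of class I processing had 10 of 20 higher and 0 lower in Mo at 6 weeks (median 0.34), and 12 higher and 2 lower in PMN (median 0.54), and under joint quantile normalization 5 higher and 1 lower in Mo and 10 higher and 4 lower in PMN. Ide, a protease, was at 0.98 ± 0.16 in Mo, where Blmh, a cytosolic peptidase, was at 0.92 ± 0.17, Psme3, another proteasome activator gene, at 0.73 ± 0.11 and Ganab, a glucosidase gene of protein folding, at 0.61 ± 0.11. In PMN Blmh (1.51 ± 0.18), Psme3 (1.27 ± 0.12) and Ganab (1.19 ± 0.11) were higher, and Ide was at 0.20 ± 0.17 and did not pass. Only 10 of 21 listed class I heavy chain genes had a feature of their own, and H2-K1 and H2-D1 were not among them. Of these 10, 4 were lower in Mo and 0 higher (1 lower under joint quantile normalization), led by H2-T24 at -1.36 ± 0.19 (adjusted p = 8.13e-05). In PMN 4 of 10 were lower and 2 higher (H2-Q4 and H2-T24), close to the shares of all genes (40% and 25.5%), with H2-T24 at 0.49 ± 0.20 (adjusted p = 0.0427), and under joint quantile normalization 2 were lower and 0 higher.

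Interferon-gamma-induced genes outside the class I pathway were lower in Mo at 6 weeks in 11 of 15 cases and higher in 0, with a median of -0.60 (9 lower and 1 higher after centring, 13 and 0 under joint quantile normalization). Cxcl10, a chemokine gene, was at -1.52 ± 0.14, Gbp4, a guanylate-binding protein gene, at -1.28 ± 0.21, Irgm1 at -1.24 ± 0.17, and Ciita, the transactivator of MHC class II and a relative of Nlrc5, at -1.12 ± 0.11. In PMN 6 of 15 were lower, no more than the 40% of all genes, and 0 higher on the deposited scale (median -0.26). The count of lower genes was 3 without 6-week replicate 1 and 4 without 6-week replicate 2, and the calls were 1 lower and 4 higher after centring and 7 lower and 1 higher under joint quantile normalization. Among interferon receptors, their kinases and transcription factors, 7 of 19 were lower and 3 higher in Mo (5 and 5 after centring, 13 and 0 under joint quantile normalization), and the count of higher genes ran from 0 to 5 with 1 array left out. Among the lower genes were Irf7 at -1.86 ± 0.21, Usp18, which damps interferon signalling, at -1.58 ± 0.23, Irf4 at -1.10 ± 0.14 and Irf1 at -1.05 ± 0.13. In PMN 9 of 19 were higher and 3 lower on the deposited scale and 2 higher and 11 lower under joint quantile normalization, and Irf1 did not pass (0.21 ± 0.14). The difference of the Irf1 change between the subsets was -1.26 ± 0.19 (adjusted p = 0.000243). MHC class II genes were lower in Mo in 8 of 9 cases (median -1.80) and in PMN in 7 of 9 (median -0.72), with H2-Ea at -3.96 ± 0.41 and Cd74 at -3.34 ± 0.34 in Mo.

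**Figure D5:**
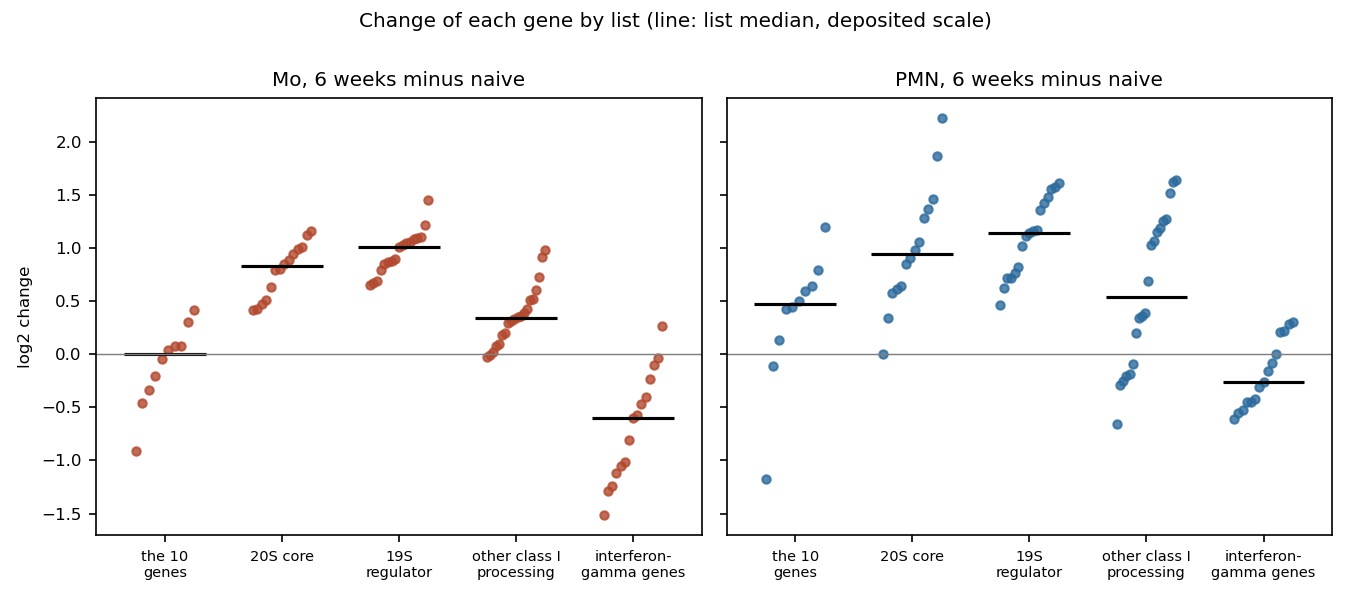
Log2 change at 6 weeks minus naive on the deposited scale (vertical axis) of every measured gene of 5 lists, in Mo (left) and PMN (right). Each point is a gene and the line is the list's median. The medians of the 20S core and the 19S regulator lie between 0.83 and 1.14 in both subsets, those of the 10 genes at 0.00 in Mo and 0.48 in PMN, and those of the interferon-gamma genes at -0.60 and -0.26.

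Markers of other cells and of cell division moved with stage in both subsets, and in these bulk samples fewer cells of a type and less RNA per cell cannot be told apart. Summed intensity of 9 MHC class II genes was 1192 to 2245 in Mo at 6 weeks against 7674 to 8075 in naive Mo. B cell markers were lower in 8 of 11 cases in Mo (summed intensity 798 to 1102 at 6 weeks against 1172 to 2169 in naive Mo) and in 11 of 11 in PMN (1426 to 1538 against 3589 to 4331). The Mo count was 0 without naive replicate 1 and 1 without 6-week replicate 2 or 3. T and NK cell markers were lower in 11 of 14 in Mo (1412 to 1747 against 2469 to 3323), and in PMN 10 were lower and 1 higher (1907 to 1949 against 2230 to 2799), or 5 and 6 lower without 6-week replicate 1 and 2. The defining markers Cd3g (5.74) and Ms4a1 (5.85) lay below the receptor genes' 95th percentile (6.80) in Mo at 6 weeks, and at 7.45 and 7.03 in PMN at 6 weeks.

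Dendritic cell markers were lower in 9 of 12 in each subset, with 1 higher in each (1572 to 2031 at 6 weeks against 2387 to 2641 in naive Mo, and 1245 to 1384 against 1905 to 2090 in PMN). Macrophage markers were lower in 5 of 10 and higher in 1 in Mo (1416 to 1793 against 2055 to 2249), and 1 was higher and 1 lower in PMN (2649 to 2808 against 1703 to 3482). The Mo count of lower macrophage markers was 2 without naive replicate 1 or 2 or without 6-week replicate 2 or 3. Neutrophil markers were higher in 9 of 12 in Mo (12790 to 28850 against 1427 to 2109) and in 10 of 12 in PMN (81440 to 86420 against 36000 to 38390), and azurophil granule genes of neutrophil precursors in 5 of 6 in Mo (4855 to 12940 against 627 to 785) and in 4 of 6 in PMN (1103 to 1312 against 543 to 598). Cell cycle genes were higher in 18 of 18 in Mo (14370 to 27290 against 3168 to 4801) and 16 of 18 in PMN (8053 to 9445 against 2297 to 2406). Monocyte markers had 2 of 9 higher and 4 lower in Mo (40900 to 44830 against 39570 to 43740) and 3 and 3 in PMN (2503 to 2671 against 3049 to 5229), and erythroid markers 0 of 5 in Mo (4 higher without 6-week replicate 3) and 1 lower in PMN. The part of these shifts in the changes of the 10 genes was not tested.

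Over the 9 Mo arrays, the genes whose profile was most like the mean of the 10 members were Casp4 (Pearson r = 0.987), Mob3b (0.976), Slc39a10 (0.975), Rnf31 (0.974) and Kif9 (0.974). These are descriptions over arrays that share 3 stages. The brightest Nlrc5 feature ran with B2m (r = 0.64) and Tapbp (0.39) over the same arrays and opposite to Psmb8 (-0.85), Psmb10 (-0.75), Psmb9 (-0.51), Psme1 (-0.49) and Psme2 (-0.44). The mean of the other 18 features gave higher values for each, 0.90 for Tapbp, 0.83 for B2m, 0.68 for Tap1 and 0.45 for Tap2, and between -0.18 and 0.33 for the subunit and activator genes.

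Levels were higher in Mo than in PMN for 8 of the 10 genes when set side by side on the deposited scale, with means over 9 Mo and 8 PMN arrays. The Mo arrays were also brighter, with a median intensity of 95.3 to 114 against 81.0 to 95.9 in PMN. The share of all genes higher in Mo was not taken, so the count of 8 has no background beside it. The gap was widest for Psme2 (1.91) and Psmb10 (1.81), followed by Psmb8 (1.56), Tapbp (1.44), Psme1 (1.38), Tap1 (1.18), B2m (1.07) and Psmb9 (0.80). Tap2 (-0.02) and Nlrc5 by its brightest feature (-0.08) were near 0. Each of the other Nlrc5 features had a higher mean in naive Mo than in naive PMN. Feature 10574102 was at 8.47 against 6.94, and feature 10574159 at 8.28 against 8.20. The level gap of Nlrc5 thus depended on the feature read. After joint quantile normalization Psmb9 (-0.03), Tap2 (-0.79) and the brightest Nlrc5 feature (-0.94) lay below 0 and the other 7 genes above. At 6 weeks on the deposited scale the order turned for Tap2, with 8.34 ± 0.04 in Mo (SD, n = 3) and 8.95 ± 0.02 in PMN (SD, n = 2).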

How the data were processed

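Total RNA of 17 sorted samples was hybridised to Affymetrix Mouse Gene 1.0 ST arrays. The authors made the deposited values with RMA, per the submitters' processing notes, with no version given. Unlike usual RMA output, the deposited intensities were linear, from 9.76 to 32095, and their log2 was taken here. Values shared between arrays (median 942.5 distinct values in Mo pairs, 251 in PMN pairs and 146 between subsets) led to the subsets being treated as normalized apart.

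Of 35557 features, 21789 carried 1 gene symbol, 1621 several and 12147 none. The brightest feature of each gene was used, and those of several genes were left out. RefSeq (GRCm38.p6) held the Entrez number of 21698.

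A model with a mean for each group used all 17 arrays (lmFit, contrasts.fit and eBayes of limma 3.58.1, under R 4.3.3), two-sided, with Benjamini-Hochberg adjustment over 19938 genes. Simulated data tested the script. The alternatives were 2 scalings, a dim-gene filter (11468 genes kept), a floor of 64, each subset alone, the mean of all features, array weights, a replicate block and leaving out each array. Quantile normalization within subsets, the other Nlrc5 features and ratios after joint quantile normalization were added after seeing the data. Ratios were tested by exact permutation.

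The 10 genes, the lists, the motifs and the rule for named genes were chosen with earlier results of these data known. All 10 genes are named, as are up to 4 genes of each pathway list, those with the largest changes that passed in Mo at 6 weeks against naive. Genes outside this rule (H2-Q4, Psmb5, Psmb6, Cd3g, Ms4a1, Ccr2, Cxcr2 and Ly6g) were named as ratio partners or markers, or to spell out a small count.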

Additional observations from a re-analysis of the deposited data

Results flagged for a closer look

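Differences between the subsets in the 6-week change, as the change in Mo minus the change in PMN, passed the test for 5 of the 10 genes. All 5 were lower in Mo, beside 11% of all genes lower and 6.47% higher. Of the 11468 brighter genes, 2329 were lower and 1189 higher. The differences were -1.12 for Psme1, -0.89 for Tapbp, -0.84 for Tap2, -0.70 for Tap1 and -0.47 for B2m on the log2 scale. Under joint quantile normalization 3 of the 10 passed, all lower in Mo, beside 11.5% of all genes lower and 6.63% higher. Tapbp and B2m lost their calls there. The B2m call was also lost with some single arrays left out. The naive groups had 3 Mo and 4 PMN arrays, and the 6-week groups 3 and 2. Dixon's test marked no array of naive PMN, the only group of 4, in any of the 10 genes. With 4 values this test can find only gross outliers, so it says little about these arrays. The groups of 2 or 3 arrays were not tested.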

How the results depend on the processing

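Under joint quantile normalization the count of the 10 genes that passed was 6 in Mo at 6 weeks against naive (3 on the deposited scale), 0 at 3 weeks against naive (1), 6 at 6 against 3 weeks (2), 5 in PMN at 6 weeks against naive (8), 4 at 6 against 3 weeks (7), and 3 for the difference between the subsets (5). Of all 19938 genes, 5244, 157, 1677, 9615, 8298 and 3617 passed there. Quantile normalization within each subset, added after seeing the data, gave 6, 0, 6, 5, 3 and 3, beside 6390, 586, 1972, 8528, 7176 and 2847 of all genes. Array weights gave 5 (2 higher and 3 lower) in Mo at 6 weeks and 9 at 3 weeks against naive, 10 at 6 against 3 weeks, and 8 for the difference. Of all genes, array weights called 14171, 15177, 7809 and 6840 in these comparisons. The replicate block gave 5 for Mo at 6 weeks against naive (Psmb8 and Psmb10 then passed as higher) and 6 at 3 weeks (5 higher and 1 lower), beside 10851 and 5302 of all genes. Same-numbered arrays correlated at -0.09 to 0.63 in Mo and -0.46 to 0.02 in PMN (deviations from the group means). Of the same-numbered pairs, 7 of 9 lay above 0.1 in Mo and 0 of 6 in PMN. Of the 18 Mo pairs with different numbers, 12 lay below 0. Deviations from a group mean sum to 0, so these values are tied to each other. In PMN groups of 2 arrays they mirror each other exactly, so the PMN count says little about the numbers. A Mo array was most like its own number at another stage in 13 of 18 cases. The labels do not tie the numbers to a litter, batch or day, so the arrays were not treated as paired, and whether the Mo numbers mark something shared was not tested. For Mo at 3 weeks against naive, centring gave 3, leaving out dim genes 3, a floor of 64 gave 0 and the Mo arrays alone 0. With 1 array left out, the counts ran from 2 to 4 in Mo at 6 weeks against naive, 0 to 8 at 3 weeks, 2 to 4 at 6 against 3 weeks, 6 to 8 in PMN at 6 weeks against naive, 3 to 8 at 6 against 3 weeks and 4 to 5 for the difference. Over all genes, 1202 passed in Mo at 3 weeks against naive, against 157 under joint quantile normalization, 115 with the floor, 2 with the Mo arrays alone, 5302 with the block, 15177 with array weights and 16 to 8911 with 1 array left out. After centring 1779 passed, and with dim genes left out 1917 of 11468. In Mo at 6 weeks 9204 passed, against 5244 under joint quantile normalization. The share of higher calls was 47.2% there and 38.9% in PMN on the deposited scale, and 69.5% and 64.4% after centring. The cause of these changes was not tested.

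These signs turned under joint quantile normalization. In Mo at 6 weeks against naive they were Psmb9 (-0.29), Psmb10 (-0.0805), Psme1 (-0.26) and Psme2 (-0.32), and at 3 weeks Tap2 (-0.23) and Tapbp (-0.0224). In PMN at 6 weeks against naive they were B2m (-0.39), Tap1 (-0.0174), Tapbp (-0.39) and Psmb9 (-0.31), and against 3 weeks B2m (-0.26), Tap1 (-0.0393), Tap2 (-0.10), Tapbp (-0.43) and Psmb9 (-0.40). The difference between the subsets turned for Psmb9 (0.0213), as did its level in Mo minus PMN (-0.0338). Centring turned Tap2 (0.0791) in Mo at 6 weeks, B2m (0.10) in Mo at 3 weeks and Psmb10 (0.093) in PMN at 6 weeks. Array weights turned Psme2 in Mo at 6 weeks (-0.0112). The mean of all features turned Nlrc5 in Mo at 3 weeks (0.0291) and in the difference (-0.14), and the median of its other features was 0.0604 in Mo at 3 weeks. With 1 array left out, Psme2 ran from -0.0555 to 0.149 in Mo at 6 weeks, B2m from -0.056 to 0.0154 and Tap2 from -0.0338 to 0.0632 in Mo at 3 weeks, Psmb8 from -0.34 to 0.0352 at 6 against 3 weeks, and the ratio of Psmb8 to Psmb5 from -0.10 to 0.10 in Mo at 6 weeks. The precision rests on 2 to 4 arrays a group.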
